A study of Mus musculus with 7 samples.

Results

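Origin licensing and firing genes encode the proteins that load the replicative helicase onto DNA before S phase and then switch it on. A set of 10 such genes was chosen by name, namely Orc1, Orc6, Cdc6, Cdt1, Gmnn, Dtl, Dbf4, Cdc45, Gins1 and Gins2, and looked up by Ensembl identifier among the 15531 genes tested. All 10 were among the tested genes, and 8 of the 10 were differentially expressed (DE) between genotypes. RNA from 7 primary mouse embryonic fibroblast (MEF) lines had been sequenced, 4 Df/+Bl6 and 3 +129/+Bl6, to ask how an engineered deletion at 4E2, a band near the end of chromosome 4, alters gene expression. Df is a chromosome 4 of the 129S5/SvEvBrd strain that lacks a multi-megabase segment of 4E2, +129 is the intact 129S5/SvEvBrd chromosome, and +Bl6 is the intact C57BL/6J chromosome. Lines of both genotypes therefore carried a 129S5/SvEvBrd and a C57BL/6J copy of every autosomal gene outside the deletion. For the Df/+Bl6 lines, chimeric males carrying Df and the reciprocal duplication Dp were mated with C57BL/6J females. The control lines came from F1 +129/+Bl6 crosses, so cross and genotype cannot be told apart. Embryos were taken at day 13.5, and the MEFs were used at passage 4, 10 hours after confluency. The Df and Dp chromosomes come from a single engineered ES cell line, and neither litter nor batch is given for the MEF lines.

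Replication origins are marked by the origin recognition complex (ORC). On ORC, the ATPase Cdc6 and the loader Cdt1 place the MCM helicase, a step called licensing that is held to the time before S phase. Geminin, the product of Gmnn, binds and blocks Cdt1, and Dtl is the substrate receptor of the Cul4-Ddb1 ubiquitin ligase, which destroys Cdt1 on replicating DNA. Firing follows when the kinase Cdc7, with its regulatory subunit Dbf4, phosphorylates MCM, and Cdc45 and the GINS complex join MCM to form the active helicase. Many of these genes are textbook targets of the E2F transcription factors, which act through short words in promoters.

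The members were spread over 8 mouse chromosomes, with 3 of them on chromosome 8 (GRCm38). Orc1 was the only member on chromosome 4 (4:108575705-108616030), and it lay 41.7 Mb before Rere, taken here as the border of the deletion on that side. None of the members was thus part of the deleted segment. As a check of the labels, of 41 tested genes lying between Rere and Ski, 26 were DE with both alleles summed, and all 26 were lower in Df/+Bl6. By allele, 21 genes of the interval were DE on the 129S5 allele, which carries the deletion, and 11 on the C57BL/6J allele, which is intact in both genotypes, all lower in Df/+Bl6. Calls on the C57BL/6J allele thus also occurred within the deleted interval, and their source was not tested.

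RefSeq promoter windows on GRCm38.p6, from 250 bases before to 50 bases after an annotated start, were matched by symbol for 7 of the 10 members, and not for Gmnn, Gins1 and Gins2. They were searched on both strands for the 8-letter E2F words TTTGGCGC, TTTCCCGC, TTTCGCGC and TTTGCCGC, and for the 7-letter words left when the first T of each is dropped, so that every 8-letter match also holds a 7-letter match. The 4 windows with an E2F word are shown in the following lines because they carry this feature. The first 3 are the 250 bases before the annotated start of Dtl (chr1:191575545-191575794, minus strand), Orc1 (chr4:108579204-108579453, plus strand) and Cdc6 (chr11:98907901-98908150, plus strand). The windows of Orc1 and Cdc6 lie inside the gene spans, which begin earlier, at 108575705 and 98907709. Their words are thus upstream of the start used here and not of the whole gene. For Cdt1, the 30 bases that hold both of its words lie just after the start (chr8:122568025-122568054, plus strand). All read 5′ to 3′ on the strand of the gene, and capitals mark the E2F words.
Dtl: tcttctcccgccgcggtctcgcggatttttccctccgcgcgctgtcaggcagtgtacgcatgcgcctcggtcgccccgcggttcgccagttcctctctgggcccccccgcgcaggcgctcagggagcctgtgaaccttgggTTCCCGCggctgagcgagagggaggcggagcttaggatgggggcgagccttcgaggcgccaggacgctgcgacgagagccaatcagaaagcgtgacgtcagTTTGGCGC
Orc1: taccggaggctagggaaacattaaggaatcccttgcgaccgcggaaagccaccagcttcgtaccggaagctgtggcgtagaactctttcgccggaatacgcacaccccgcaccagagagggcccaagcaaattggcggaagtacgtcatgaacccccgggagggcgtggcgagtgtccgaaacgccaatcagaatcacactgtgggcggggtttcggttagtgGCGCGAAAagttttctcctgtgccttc
Cdc6: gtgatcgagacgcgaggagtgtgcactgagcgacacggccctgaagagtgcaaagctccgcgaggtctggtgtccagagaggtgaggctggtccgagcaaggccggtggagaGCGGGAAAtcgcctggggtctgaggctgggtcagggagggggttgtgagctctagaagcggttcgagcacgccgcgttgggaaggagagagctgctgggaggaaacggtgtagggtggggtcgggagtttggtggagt
Cdt1: cggaatccGCGGGAActaccttTTTGGCGC

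An 8-letter E2F word was found in 4 of 7 member windows, against 2.26% of the 32851 RefSeq windows. Each of these members has a single window, whereas other genes can have several, so the shares that follow count a gene once if any of its windows holds a word. In Dtl the word began 8 bases before the annotated start of the window, and in Orc1 27 bases before it. In Cdc6 the word began 138 bases before that start, and in Cdt1 32 bases after it. Dtl and Cdt1 each held a further 7-letter word. The windows of Dbf4, Cdc45 and Orc6 held neither an 8-letter nor a 7-letter word, which says only that these letters are not in these windows. The 8-letter share was 2.6% of all 27025 genes with a window, 4.53% of the tested genes, 14.2% of the genes that rose in Df/+Bl6 (88 of 621) and 3.29% of those that fell (14 of 426). Of the other licensing and firing genes described further on that were DE, 9 of 24 with a window held an 8-letter word. Dtl, Orc1 and Cdc6 carried a word and were DE. Cdt1 carried a word and was not DE, and Dbf4, Cdc45 and Orc6 carried none and were DE. A link between words and calls was not tested.

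**Figure D1:**
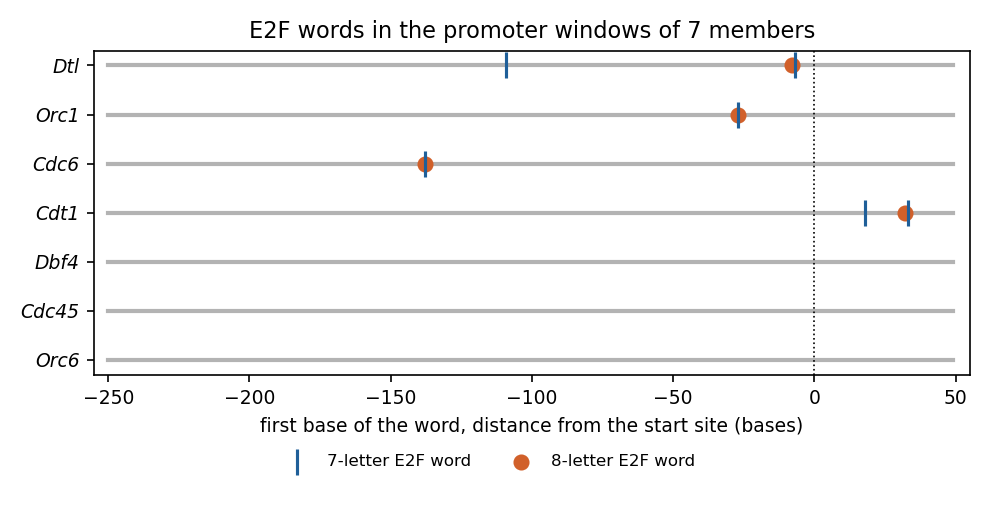
First base of each E2F word (horizontal axis, bases from the annotated start, with 0 at the start) in the RefSeq promoter windows of 7 members (rows; grey lines span each window). Circles mark 8-letter words and vertical ticks 7-letter words; Dtl, Orc1, Cdc6 and Cdt1 hold words, and the rows of Dbf4, Cdc45 and Orc6 are empty.

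Expression was compared with both alleles summed. A gene is called DE here when the authors' DESeq test placed it past a false discovery rate (FDR) of 0.05, and 8.67% of the tested genes (1346 of 15531) were DE in either direction, with 5.13% of the tested genes higher in Df/+Bl6 and the rest of the calls lower. Of the 10 members, 8 were higher in Df/+Bl6 and none was lower. Their log2 ratios of the genotype means lay between 0.79 and 1.30, with a median of 1.02, or 2.02-fold. The median over all 796 genes higher in Df/+Bl6 was 0.80. Values of single lines were not used, because the columns that hold them carry no names, so every level that follows is the authors' mean over the 4 Df/+Bl6 or the 3 +129/+Bl6 lines, in normalized counts, without an error, and whether single lines overlap between genotypes is not known. The test behind each call took the spread between lines into account.

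Among the ORC subunits, Orc1, the ATPase subunit that comes and goes with the cell cycle, had a mean of 1224 normalized counts in Df/+Bl6 and 597 in +129/+Bl6, a log2 ratio of 1.04. Orc6, the smallest subunit, had means of 4505 and 2611, a log2 ratio of 0.79. This was the smallest ratio of the 8 DE members, and 48.2% of the 796 genes that rose had a still smaller ratio. Of the remaining ORC genes, Orc2 (log2 ratio 0.77), Orc4 (0.77) and Orc5 (0.61) were also higher, and Orc3 was not DE. In all, 5 of the 6 ORC genes were thus higher in Df/+Bl6.

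The loader gene Cdc6 had the largest ratio of the members. Its mean was 2332 normalized counts in Df/+Bl6 and 944 in +129/+Bl6, a log2 ratio of 1.30 or 2.47-fold, and it ranked 89 of the 796 genes higher in Df/+Bl6. Cdt1, its partner in loading, was tested and not DE, and no level is given for it. This does not show that Cdt1 was equal in the genotypes.

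Gmnn and Dtl, whose products restrain Cdt1, were both higher. Gmnn, the Cdt1 inhibitor, had means of 1222 and 621 normalized counts in Df/+Bl6 and +129/+Bl6, a log2 ratio of 0.98. Dtl had means of 2928 and 1391, a log2 ratio of 1.07. The ligase subunits that work with the Dtl product, Cul4a, Cul4b, Ddb1 and Rbx1, were tested and not DE, while Pcna, the sliding clamp on which that ligase recognises Cdt1, was higher (10817 against 6817 normalized counts, log2 ratio 0.67). Skp2 (0.99) and its cofactor Cks1b (0.62), which belong to another ubiquitin ligase that targets Cdt1, were higher, and the shared core subunits Skp1a and Cul1 were not DE.

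In the kinase that triggers firing, the regulatory subunit Dbf4 had means of 6432 normalized counts in Df/+Bl6 and 3163 in +129/+Bl6, a log2 ratio of 1.02. The gene of its catalytic subunit, Cdc7, had means of 1311 and 435, a log2 ratio of 1.59. Both genes of the kinase were higher.

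Of the helicase activators, Cdc45 had means of 2786 and 1387 normalized counts in Df/+Bl6 and +129/+Bl6, a log2 ratio of 1.01. Gins1 had means of 544 and 270, also a log2 ratio of 1.01, at the lowest mean of the DE members. Gins2 was tested and not DE, as was Gins4, whereas Gins3 was higher (898 against 422, log2 ratio 1.09). The 4 GINS subunits work as a single complex, and 2 of their genes were DE. All 6 genes of the MCM ring were higher, with log2 ratios from 0.69 (Mcm2) to 1.01 (Mcm6).

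**Figure D2:**
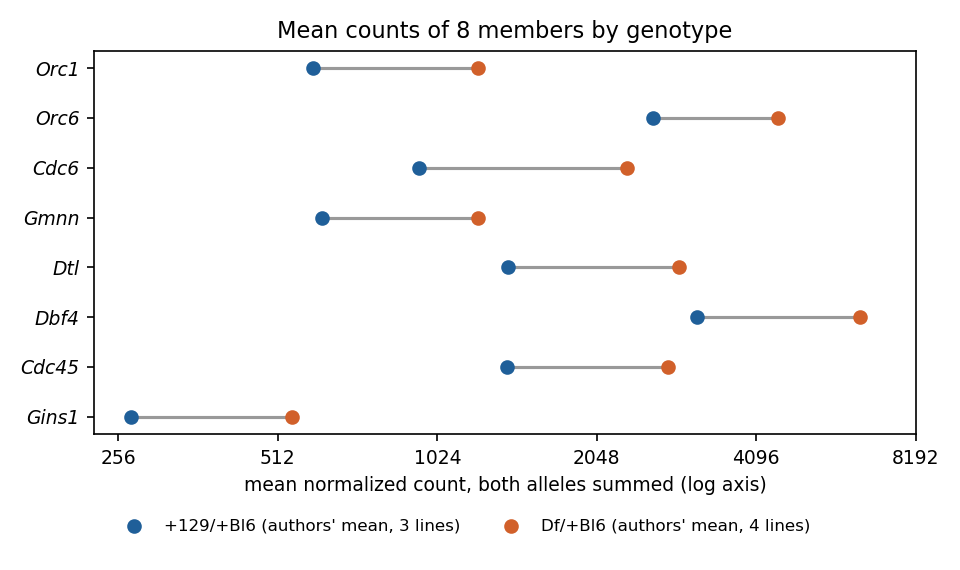
Authors' mean normalized counts of the 8 DE members (rows) with both alleles summed, on a log axis, for +129/+Bl6 (blue, 3 lines) and Df/+Bl6 (orange, 4 lines). Every Df/+Bl6 mean lies to the right of its +129/+Bl6 mean, by about the same distance in 6 of the 8 rows (log2 ratios of 0.98 to 1.07), by more in Cdc6 and by less in Orc6; means of single lines and errors are not shown because line values were not used.

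The 8 DE members differed far more in level than in ratio. Divided by the longest annotated transcript of each gene (GENCODE M1), Orc6 (2726 normalized counts per kb) and Dbf4 (2563) had the highest Df/+Bl6 levels, and Cdc45 (1300), Gmnn (1084) and Dtl (697) followed. Gins1 (500), Cdc6 (486) and Orc1 (298) were lowest. In +129/+Bl6 the order was the same, from Orc6 (1580) and Dbf4 (1261) down to Gins1 (248), Cdc6 (197) and Orc1 (146 normalized counts per kb). Without values of single lines, no neighbours in this order can be told apart from each other. The SD of the log2 ratios across the 8 genes was 0.14, which is a spread between genes and not a replicate error.

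**Figure D3:**
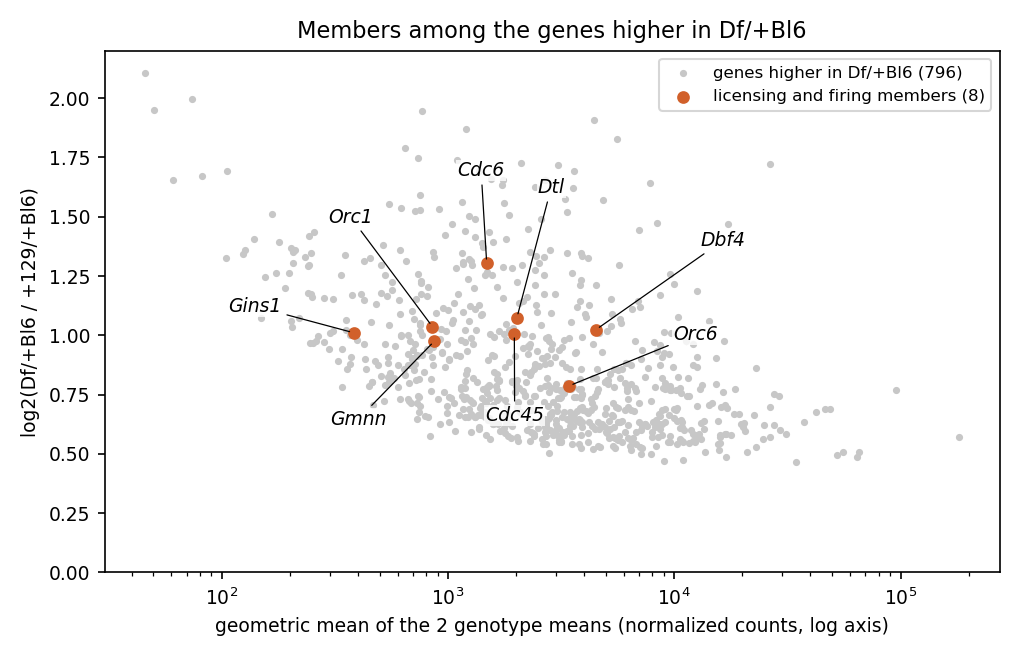
Log2 ratio of the genotype means (vertical axis) against the geometric mean of the 2 genotype means (horizontal axis, log scale) for the 796 genes higher in Df/+Bl6 (grey), with the 8 DE members in orange. The members lie between log2 ratios of 0.79 and 1.30 in the middle of a range that runs from 0.47 to 2.11, the smallest and the largest ratio among these 796 genes.

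Reads that cover a strain difference were counted by allele, which asks whether the 129S5 and the C57BL/6J copy of a gene moved alike. These comparisons share their lines with the summed one and rest on fewer reads, and the tables were normalized separately, so levels are compared only within a table. For the 129S5 allele, 4 of the 10 members were DE and all 4 were higher in Df/+Bl6, against 4.88% of tested alleles DE in either direction and 2.54% higher. For the C57BL/6J allele, 5 were DE and all 5 were higher, against 5.69% DE and 3.16% higher. In all, 6 members were DE on at least 1 allele. Which genes were tested by allele is not listed in the tables used here, so an allele without a call may not have been tested.

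Gins1, Orc6 and Dbf4 were DE on both alleles. The Dbf4 means in Df/+Bl6 and +129/+Bl6 were 1082 and 502 normalized counts on the 129S5 allele (log2 ratio 1.11), and 1130 and 598 on the C57BL/6J allele (0.92). The Orc6 means were 1059 and 545 on the 129S5 allele (0.96), and 1573 and 974 on the C57BL/6J allele (0.69). The Gins1 means were 123 and 51.7 on the 129S5 allele (1.25), and 137 and 66.4 on the C57BL/6J allele (1.05). The log2 ratio was larger on the 129S5 allele by 0.19 for Dbf4, 0.27 for Orc6 and 0.21 for Gins1, and these differences were not tested.

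Dtl was DE on the 129S5 allele only, at means of 116 and 50.7 normalized counts in Df/+Bl6 and +129/+Bl6 (log2 ratio 1.20). Orc1 and Cdc6 were DE on the C57BL/6J allele only. Orc1, which shares chromosome 4 with the deletion, had C57BL/6J means of 174 and 74.6 (1.22), on the chromosome that was intact in both genotypes. Cdc6 had C57BL/6J means of 67.2 and 22.8 (1.56), the lowest counts and the largest ratio of the allelic values. A call on a single allele does not show that the alleles differed. Gmnn and Cdc45 were DE with the alleles summed and on neither allele.

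**Figure D4:**
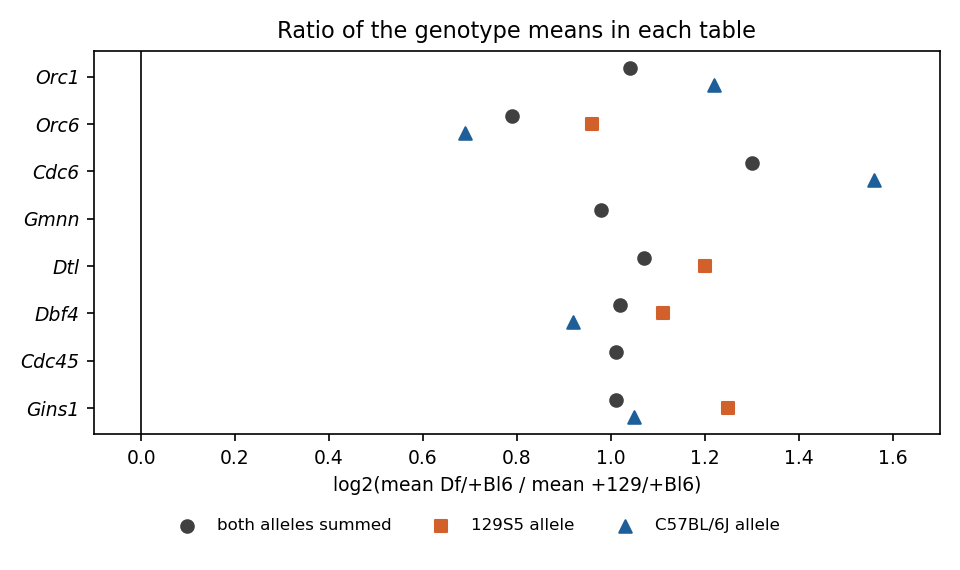
Log2 ratio of the Df/+Bl6 mean to the +129/+Bl6 mean (horizontal axis) for the 8 DE members (rows), with both alleles summed (grey circles), on the 129S5 allele (orange squares) and on the C57BL/6J allele (blue triangles). A symbol is drawn only where the gene was DE; all symbols lie to the right of 0, between 0.69 and 1.56.

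The other genes of licensing and firing were taken from lists of 45 genes in all, every one of them tested. Of these, 32 (71.1%) were higher in Df/+Bl6 and none was lower, against the background of 8.67%. Their median log2 ratio was 0.92. Among 15 firing factors and genes of fork start, 14 were higher. They included Clspn, the mediator of the replication checkpoint (5499 against 2292 normalized counts, log2 ratio 1.26), Ticrr (2630 against 1178, 1.16) and Topbp1 (16946 against 9290, 0.87), both needed for Cdc45 to join, Mcm10 (1.05), Recql4 (1.05) and Wdhd1 (1.14), and the polymerase epsilon genes Pole (0.99) and Pole2 (0.94).

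Among 15 genes that control licensing, 5 were higher. Besides Pcna, Skp2 and Cks1b these were Fbxo5, an inhibitor of the anaphase-promoting complex (3109 against 987 normalized counts, log2 ratio 1.66), and Rif1, which opposes the Cdc7 kinase at origins (4231 against 1684, 1.33). Not DE were Fzr1, the activator of the anaphase-promoting complex that Fbxo5 inhibits, the histone acetyltransferase gene Kat7, and Lrwd1 and Mcmbp, whose products bind ORC and MCM. Of 5 genes of the S phase kinases, Ccne2 (1.64), Ccna2 (1.26), Cdc25a (0.64) and Ccne1 (0.55) were higher, and Cdk2, the kinase that these cyclins bind, was not DE. By allele, 12 of the 45 genes were DE on the 129S5 allele and 12 on the C57BL/6J allele, all higher in Df/+Bl6. Over all tested alleles, 4.88% were DE for 129S5 and 5.69% for C57BL/6J. How many of the 45 genes were tested by allele is not known.

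**Figure D5:**
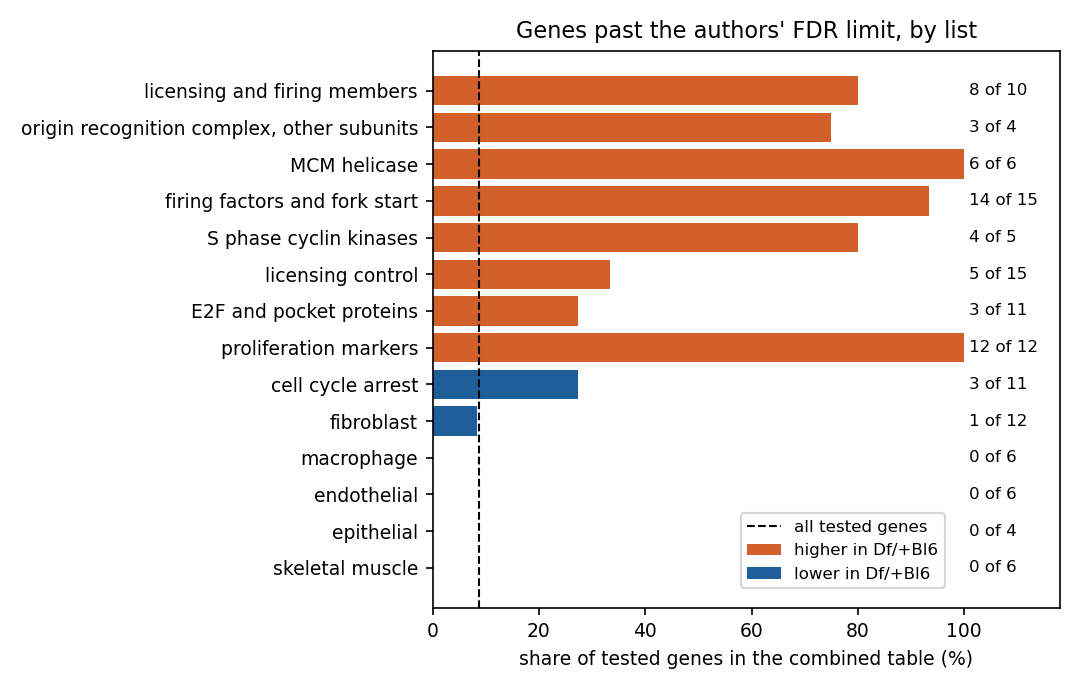
Share of the tested genes of each list (rows) that were DE with both alleles summed (horizontal axis, percent), higher in Df/+Bl6 in orange and lower in blue, with the number of DE genes of those tested at the right. The dashed line is the 8.67% of all tested genes; the lists of licensing, firing and proliferation reach well beyond it on the higher side, and the macrophage, endothelial, epithelial and skeletal muscle lists are at 0.

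Genes that mark dividing cells moved in the same direction. The background for the lists that follow is again the 8.67% of all tested genes that were DE in either direction. All 12 proliferation markers were higher in Df/+Bl6, at a median log2 ratio of 1.08, among them Mki67 (48354 against 14644 normalized counts, log2 ratio 1.72), Top2a (1.47), Rrm2 (0.90) and Plk1 (0.94). Of 11 E2F and pocket protein genes tested, E2f7 (1.04), E2f8 (0.95) and Rbl1 (0.91) were higher and none was lower. A list made for cell cycle arrest was wider than its name, with the cyclin gene Ccnd1 and with Mdm2, both not DE. Of its 11 tested genes, 3 were lower and none was higher. The 3 encode inhibitors of cyclin-dependent kinases: Cdkn1a (10462 against 16690, log2 ratio -0.67), Cdkn2a (5583 against 9049, -0.70) and Cdkn2b (9814 against 16891, -0.78). Other inhibitor genes of this kind, Cdkn1b, Cdkn1c and Cdkn2c, were tested and not DE. These are bulk cultures, so a larger share of cells in or near S phase and more RNA per such cell cannot be told apart, and the part of the proliferation markers in the members' ratios was not tested.

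Markers of cell type did not move with the members. All 12 fibroblast markers were tested, so reads were present for each, and Fn1 alone was DE (lower in Df/+Bl6, log2 ratio -0.69). None of the tested macrophage (6), endothelial (6), epithelial (4) or skeletal muscle (6) markers was DE, and their levels in single lines are not known here.

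The genes next to the members were mostly not DE. Of the 20 nearest tested genes on either side of the 10 members, 1 (5%) was DE, close to the background of 8.67%. This was Piezo1, an ion channel gene 16.7 kb before Cdt1, and it was lower in Df/+Bl6 (log2 ratio -0.58). Several members overlap a neighbour or nearly touch it: Ints7 overlaps Dtl, Ufd1 overlaps Cdc45, Gse1 overlaps Gins2, Prpf38a and Gm12743 overlap Orc1, and Slc25a40 begins 5 bases from Dbf4. The libraries were stranded, but whether counting used the strand is not stated, so a share of reads at these overlaps could belong to the neighbour. None of these overlapping or adjoining genes was DE.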

How the data were processed

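Stranded polyA+ libraries from 7 primary MEF lines were sequenced as read pairs. The authors aligned the reads with GSNAP, allowing no mismatch, to C57BL/6J transcripts (GRCm38/mm10, longest transcript per gene) and to a 129S5/SvEvBrd version of them, kept reads with a single best location, counted pairs whose mates fell on the same gene, and left out genes with few reads on either allele across genotypes. The deposited signal values are mean normalized counts per genotype, which the authors obtained with DESeq. The tables also hold the authors' fold changes, which were not used, and the deposited p-values, which served only to check the FDR limit of 0.05 and to derive the number of tests (15531 summed, 5271 for the 129S5 allele, 5727 for the C57BL/6J allele).

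From the means, log2(Df/+Bl6 / +129/+Bl6) was computed without a pseudocount in Python 3.11.15 with numpy 2.4.6 and pandas 2.3.3, after tests on simulated data. The 2 mean columns were assigned by checking that the overall mean equals their average weighted by 4 and 3 lines. A file of normalized counts has 9 value columns without names. They were not used, and its identifiers gave the tested genes. The depth per line is therefore unknown, and no SD, test or refit between lines was made. A limma fit, planned only if columns were named for lines, was not run, because columns were not assigned to lines by their values, and the authors' calls were used. The calls rest on the spread between separate lines. Neither the cross nor an unrecorded batch or litter can be told apart from genotype.

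Symbols came from a GENCODE table (14963 of 15531 tested identifiers matched), positions and promoters from RefSeq on GRCm38.p6 and transcript lengths from GENCODE M1. Symbols of 2 genes, Ticrr and Kat7, were matched through synonyms. The members and gene lists were chosen with earlier results of these data known. All members were named, every DE gene of the licensing, firing and S phase kinase lists could be, and up to 4 genes of other lists by highest mean. List genes that were not DE and the neighbours were named after their values were seen. Lists were described by counts beside the share of all tested genes, with no set test.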

Additional observations from a re-analysis of the deposited data

How the results depend on the processing

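All 8 DE members had log2 ratios of at least 0.5, and 6 had at least 1. The smallest ratio among the 796 genes higher in Df/+Bl6 was 0.47, so the limit of 0.5 removes few called genes. In 7 members a genotype mean reached 1000 normalized counts, and either genotype could supply it. Cdc6, Gmnn and Orc1 reached it in Df/+Bl6 only. For the 129S5 allele, 2 of the 4 called members reached a mean of 1000, in Df/+Bl6 only. For the C57BL/6J allele, 3 of the 5 had a log2 ratio of at least 1, and 2 reached a mean of 1000, in Df/+Bl6 only. Of the 32 other licensing and firing genes, 12 had a log2 ratio of at least 1. The 8 DE members had a median log2 ratio of 1.02. It became 1.01 with a pseudocount of 10 and 1.03 as a mean. Over the members called by allele, the median was 1.15 in the 129S5 table and 1.05 in the C57BL/6J table. Centring on the median of the combined table, 0.61, brought the median of the 8 members to 0.41. That centring uses DE genes alone, since values of other genes were not used. It left all 8 members above the table's median and 31 of the 32 other genes, Ccne1 being the exception. E2F words were in 4 of 7 windows with 7-letter words and in 3 before the annotated start. Limits on the ratio or the mean, a pseudocount and the choice of words cannot turn the direction of a gene, so they do not test it. Centring could, and it put Ccne1 below the table's median while all 8 members stayed above. The allele tables could also, and every member called there was higher in Df/+Bl6. Leaving out each line, as planned, was not run because line values have no names. No paired analysis was possible because the columns carry no replicate numbers. Unknown depth per line limits what can be said of Cdt1, Gins2 and alleles without a call.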

Other observations

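Other words known from promoters of cell cycle genes were searched in the same 7 windows after the E2F results had been seen. The word CCAAT, on either strand, was in the windows of Dtl, Orc1, Orc6 and Cdc45, and in at least 1 window of 41.1% of the 27025 genes with a RefSeq window. Its share was 53.8% of the genes that rose in Df/+Bl6 and 41.1% of those that fell. The word TTTGAA, the core of the cell cycle homology region, was in the windows of Dbf4 and Cdc45. It was found for 20.2% of all genes with a window, 25% of those that rose in Df/+Bl6 and 11.5% of those that fell. Dbf4, Cdc45 and Orc6, the DE members whose windows held no E2F word, each held at least 1 of these words. Both words are frequent: among tested genes with a window, CCAAT was found for 42.5% and TTTGAA for 14.4%. No test was made, and the DE members Gmnn and Gins1 had no window to search.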
